A study of Mus musculus with 10 samples.

Results

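The transforming growth factor beta (TGF-beta) family was followed through 10 members in mouse prostate luminal cells isolated by sorting: the ligand genes Tgfb1, Tgfb2, Tgfb3, Inhba, Inhbb, Bmp4 and Bmp7, and the receptor genes Tgfbr1, Tgfbr2 and Tgfbr3. They were found by symbol among rows of the deposited array table annotated with 1 gene symbol, taking the row with the highest mean where a gene had several. All 10 were present, each with 1 row, out of 30142 genes tested. The set was chosen by the measured difference of Tgfb2 between castrated and intact arrays, to which relatives of Tgfb2 were added, so that difference is given as a description, without a test. The question was whether other ligands, or the receptors, shared it. All mice were male and carried Hoxb13-rtTA with TetO-H2BGFP, in which a Hoxb13-driven transactivator switches on a nuclear green fluorescent protein in the presence of doxycycline, and all drank doxycycline at 2 mg/ml for 1 week before they were killed. Regenerated mice (n = 4) were castrated at 12 weeks of age, left to regress for 6 weeks and then given testosterone implants for 4 weeks. Castrated mice (n = 3) had the same surgery and regression and no testosterone, and intact mice (n = 3) were untreated. Cells were gated on the fluorescence, CD24 and intermediate CD49f, without CD45, F4/80 or CD11b, and each RNA was hybridised to its own ClariomD (MTA-1.0) whole-transcript array. Arrays of a group are labelled as biological replicates, but whether animals were pooled for an array is not stated, and the p-values reflect only how far these arrays differ among themselves. Regenerated mice lived 4 weeks longer after surgery than castrated mice, so testosterone cannot be told apart from time and age in that comparison. Intact mice had no surgery, and no age is listed for them in the details used here. In comparisons with intact arrays, surgery itself and any difference in age cannot be told apart from loss or return of testosterone.

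Ligands of this family are dimers that bring together a type II and a type I receptor kinase at the cell surface. The receptors then phosphorylate Smad proteins, Smad2 and Smad3 downstream of TGF-beta and activin and Smad1, Smad5 and Smad9 downstream of bone morphogenetic proteins (BMPs). TGF-beta is secreted in a latent complex and must be released, for instance by integrins that contain the alpha-v chain or by thrombospondin. In prostate, TGF-beta is known as a growth inhibitor of epithelium, and its signalling has been linked to regression after castration.

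Upstream sequences of Tgfb2 and its paralogue Tgfb1 are shown because these 2 ligands stood at opposite ends of the set, Tgfb2 with the widest difference between groups and Tgfb1 with the narrowest between castrated and intact arrays. Each is the 250 bases before the RefSeq start site, on the minus strand for Tgfb2 (GRCm38.p6, chr1:186705990-186706239) and on the plus strand for Tgfb1 (chr7:25686752-25687001), 5′ to 3′, with matches to a TATA box (TATAAA), an E-box (CACGTG) and a Smad binding element (CAGACA) in capitals.
Tgfb2: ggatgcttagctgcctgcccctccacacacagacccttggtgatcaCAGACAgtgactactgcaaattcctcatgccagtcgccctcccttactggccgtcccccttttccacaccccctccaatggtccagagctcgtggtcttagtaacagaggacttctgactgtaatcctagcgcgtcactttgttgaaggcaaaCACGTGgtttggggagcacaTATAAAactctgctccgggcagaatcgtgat
Tgfb1: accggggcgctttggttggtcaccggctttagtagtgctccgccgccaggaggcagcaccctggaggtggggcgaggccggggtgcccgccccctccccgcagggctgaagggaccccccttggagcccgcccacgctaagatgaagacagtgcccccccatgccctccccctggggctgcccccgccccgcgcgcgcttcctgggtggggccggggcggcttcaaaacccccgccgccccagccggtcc
The Tgfb2 sequence held the TATA box beginning 31 bases, the E-box 51 bases and the Smad element 204 bases before the start, and its GC content was 53.6%. The Tgfb1 sequence held none of the 3 and had a GC content of 75.2%. Searched on both strands of all 32851 upstream sequences in the RefSeq table, which can hold several starts of a gene, the TATA box was present in 12.4%, the E-box in 6.02% and the Smad element in 17.1%. Neither sequence held an androgen receptor half-site (AGAACA, in 16.1% of all), a cAMP response element (TGACGTCA, 1.55%), an AP-1 site (TGANTCA, 6.75%) or the palindromic Smad site (GTCTAGAC, 0.167%). None of the motifs overlapped another in these sequences, and the matches describe letters only.

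Array values are log2 intensities normalised by the authors with robust multi-array averaging (RMA). The median over all rows ran from 4.12 to 4.22. A background limit was set for each array as the 95th percentile of its 23 background control rows, 4.09 to 5.0 across arrays. Regenerated replicate 4 stood apart on principal component 1 (44.3% of the variance) at 3.03, against -31.0 to -23.2 in the other regenerated arrays, 64.1 to 75.5 in castrated and -47.6 to -40.5 in intact arrays. Where leaving out that array changed whether a member or pathway gene passed, both results are given. All 8 measured luminal markers, among them the keratins Krt8 and Krt18, exceeded the background limit on every array. Between castrated and intact arrays Krt8, Krt18, Cd24a and Dpp4 rose and Hoxb13 fell, 62.5% called against 8.01% of all genes. Between regenerated and castrated arrays Hoxb13 rose and Krt8 and Krt18 fell, 37.5% called against 4.98%. Cd24a, the gene of the sort marker CD24, was 14.87 to 15.96 in regenerated, 15.93 to 16.12 in castrated and 14.04 to 14.55 in intact arrays. Hoxb13, which drives the sorting reporter, was 8.26 to 10.27 in regenerated, 7.54 to 7.93 in castrated and 10.19 to 10.54 in intact arrays. Of 13 stromal markers only Col6a3 and Tagln were above the limit on all arrays, and Col1a2, Col3a1 and Pdgfrb were at or under it on all 10. In sorted bulk RNA, fewer cells of a type and less RNA per cell cannot be told apart.

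Tgfb2 encodes TGF-beta 2, a ligand that depends on the co-receptor betaglycan for strong binding to the type II receptor. It was 7.47, 5.94, 6.55 and 6.85 in regenerated arrays, 11.66, 11.84 and 11.31 in castrated arrays and 6.72, 7.05 and 7.16 in intact arrays. All 3 castrated arrays lay more than 3 log2 units above every other array, while the regenerated and intact ranges overlapped. The castrated mean was 4.62 ± 0.34 log2 (SE from limma) above the intact mean, a 24.7-fold difference. Castrated arrays also enter the comparison with regenerated arrays, in which Tgfb2 was 4.90 ± 0.32 log2 lower in regenerated arrays, a 29.8-fold difference, given without a test for the same reason. Without regenerated replicate 4 that difference was -4.95. Between regenerated and intact arrays Tgfb2 differed by -0.27 log2 and did not pass (95% interval -0.99 to 0.44, limma adjusted p = 0.877); the intact arrays are among those that chose the gene. Of 10 basal cell markers Krt14 and Krt17 rose in castrated against intact arrays and none fell, 20% called against 8.01% of all genes. In regenerated against castrated arrays Krt17 fell and none rose, 10% called against 4.98% of all genes. Krt5 did not pass between castrated and intact arrays (0.41 log2, limma adjusted p = 0.145). Trp63, Col17a1 and Lamb3 were at or under the background limit on all 10 arrays. The summed level of that list was 11.61 to 14.06 log2 in regenerated, 11 to 12.18 in castrated and 10.53 to 10.72 in intact arrays, a sum made up mostly of Krt15. The median over the list was 4.59 to 4.79 in regenerated, 4.83 to 5.08 in castrated and 4.63 to 4.79 in intact arrays, highest in castrated arrays like Tgfb2. The part of basal cells in the Tgfb2 difference was not tested.

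The 5 genes whose log2 values followed Tgfb2 most closely over the 10 arrays were Rwdd3, Pdcd10, Igsf3, Ang-ps3 and Ces1e, with Pearson correlations of 0.989, 0.988, 0.982, 0.982 and 0.980 among 6963 genes with a range of at least 1 log2. The arrays fall into 3 groups, and a gene that differs in castrated arrays alone scores high on this measure. Their castrated means exceeded their intact means by amounts below that of Tgfb2. Ces1e, a carboxylesterase gene, was 4.13 ± 0.10 (SD) in regenerated, 6.66 ± 0.38 in castrated and 3.99 ± 0.11 in intact arrays. Pdcd10 was 9.69 ± 0.12, 10.60 ± 0.04 and 9.64 ± 0.04 in the same 3 groups.

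**Figure D1:**
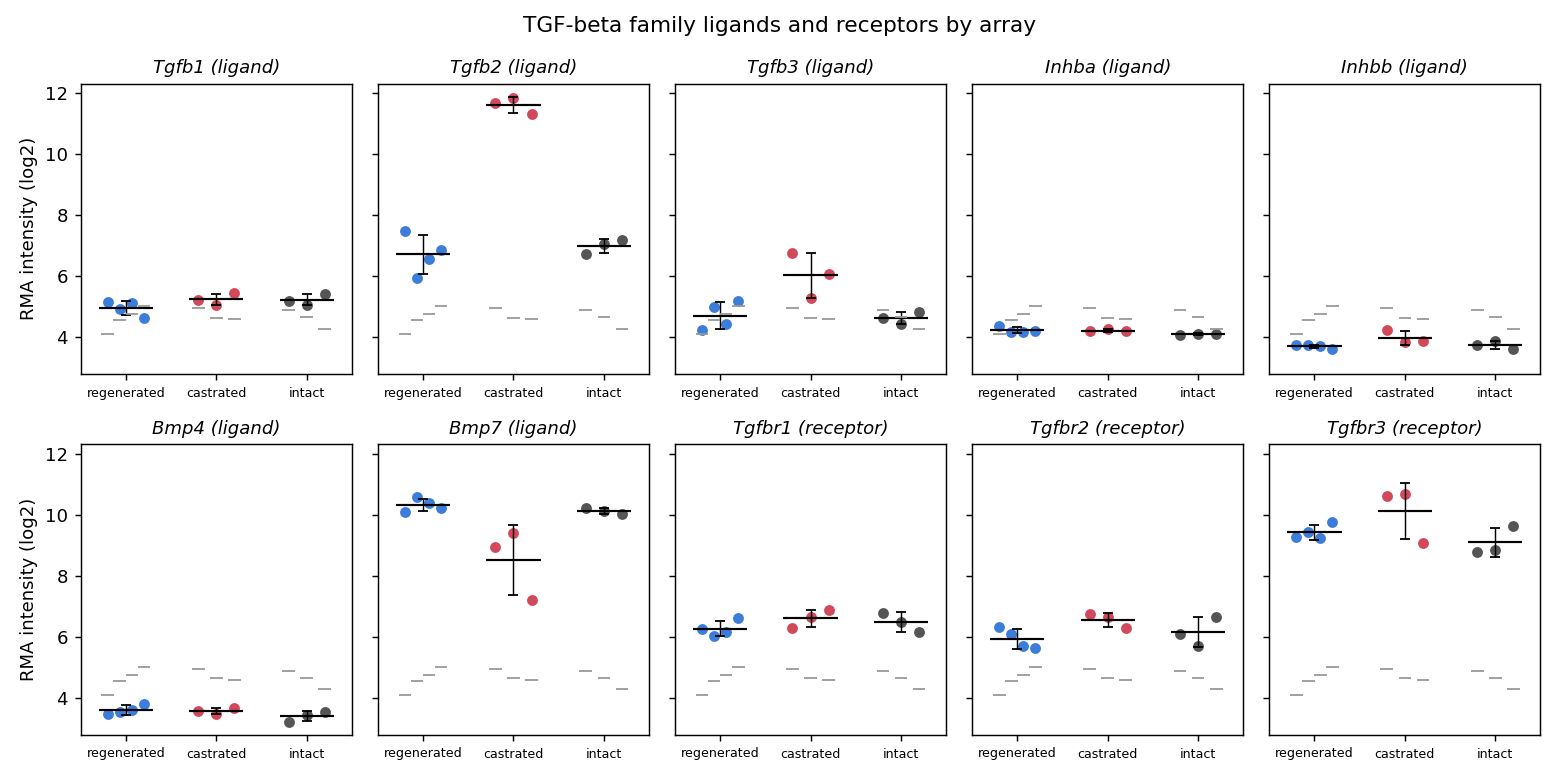
Log2 RMA intensity of each of the 10 members by array, with regenerated (n = 4), castrated (n = 3) and intact (n = 3) arrays along the x axis. Points are arrays, horizontal black lines are means, error bars are SDs and grey ticks are each array's background limit; Tgfb2 stands at 11.31 to 11.84 in castrated arrays and Inhbb and Bmp4 lie under the limit on every array.

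Tgfb3, the gene of the third TGF-beta isoform, moved in the same direction as Tgfb2 and by less. It was 4.23, 4.99, 4.41 and 5.16 in regenerated arrays, 6.74, 5.27 and 6.06 in castrated arrays and 4.63, 4.41 and 4.82 in intact arrays. Every castrated array was above every other array, with castrated replicate 2 close to the highest regenerated one. Of these values 3 of 4 regenerated, 3 of 3 castrated and 1 of 3 intact arrays exceeded the background limit, so that the fold differences may be compressed. Tgfb3 rose by 1.40 ± 0.35 log2 in castrated over intact arrays (limma adjusted p = 0.0339) and fell by 1.33 ± 0.32 in regenerated against castrated arrays (limma adjusted p = 0.0435). The first call ended without any single intact array (adjusted p = 0.0578 to 0.121) and without castrated replicate 1 (1.04 log2, adjusted p = 0.0885) or 3 (adjusted p = 0.0916). The second ended under 13 of 18 alternative settings, with an adjusted p of up to 0.119.

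Of 13 myeloid markers Cd14 and Itgam rose and none fell in castrated against intact arrays, 15.4% called against 8.01% of all genes. Itgam rose at values under the background limit on all 10 arrays. None passed between regenerated and castrated arrays, where 4.98% of all genes did, and limma gave 2 an unadjusted p under 0.05. The summed level of the list was 8.60 to 9.88 log2 in regenerated, 9.29 to 10.47 in castrated and 8.75 to 9.72 in intact arrays. The defining markers Ptprc, Adgre1 and Csf1r were at or under the background limit on all 10 arrays. The part of such cells in the Tgfb3 difference was not tested. The 2 genes most like Tgfb3 over the 10 arrays were Pfkfb3, which controls glycolysis, and the adhesion molecule gene Icam1, both with a Pearson correlation of 0.969.

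Bmp7, a BMP ligand made by many epithelia, had the opposite pattern. It was 10.10, 10.57, 10.39 and 10.21 in regenerated arrays, 8.94, 9.40 and 7.20 in castrated arrays and 10.23, 10.12 and 10.01 in intact arrays. The castrated arrays were lower than all others, and castrated replicate 3 lay well under the other 2. In regenerated arrays Bmp7 rose by 1.81 ± 0.43 log2 over castrated arrays (limma adjusted p = 0.0401), or by 1.15 without castrated replicate 3 (adjusted p = 0.0359) and by 1.84 without regenerated replicate 4 (adjusted p = 0.0479). Between castrated and intact arrays the difference was -1.61 ± 0.46 log2 and missed the threshold (limma adjusted p = 0.0609, 95% interval -2.63 to -0.59). Without castrated replicate 3 it was -0.95 (adjusted p = 0.0648), and without castrated replicate 2 it was -2.06 and passed (adjusted p = 0.0299). The call between regenerated and castrated arrays was lost under 9 of 18 alternatives, with an adjusted p of up to 0.109. The genes most like Bmp7 over the 10 arrays were Pcca, a mitochondrial carboxylase subunit, and Tfcp2, a transcription factor gene, both with a Pearson correlation of 0.971.

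Tgfb1, the isoform most often studied as a growth inhibitor, did not pass in any comparison. It was 5.14, 4.92, 5.10 and 4.63 in regenerated arrays, 5.20, 5.05 and 5.43 in castrated arrays and 5.18, 5.05 and 5.42 in intact arrays, and its groups overlapped throughout. The castrated minus intact difference was 0.01 log2, with a 95% interval of -0.35 to 0.38. Its level was within 1 log2 unit of the background limit on most arrays, which can compress a difference.

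The activin subunit genes and Bmp4 gave little signal. Inhba, which encodes the subunit of activin A, was 4.15 to 4.36 in regenerated, 4.18 to 4.26 in castrated and 4.06 to 4.10 in intact arrays, above the background limit on 1 array of 10. Inhbb, of activin B, was 3.61 to 3.73 in regenerated, 3.83 to 4.24 in castrated and 3.61 to 3.85 in intact arrays. Bmp4, a BMP ligand known from the mesenchyme of developing prostate, was 3.45 to 3.80, 3.45 to 3.65 and 3.21 to 3.54 in the same 3 groups. Inhbb and Bmp4 were under the limit on all 10 arrays, so no fold is given for them. Castrated Inhba values lay above all intact values, but by 0.12 log2 (limma adjusted p = 0.465), and both groups were under the limit.

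None of the 3 receptor transcripts passed in any comparison when all arrays were used with equal weight. In a fit with array weights Tgfbr3 passed between castrated and intact arrays. Tgfbr1, the type I kinase, was 6.24, 6.02, 6.15 and 6.60 in regenerated arrays, 6.29, 6.63 and 6.87 in castrated arrays and 6.79, 6.48 and 6.15 in intact arrays. Tgfbr2, the type II kinase that binds TGF-beta first, was 6.31, 6.09, 5.68 and 5.61 in regenerated, 6.73, 6.63 and 6.28 in castrated and 6.09, 5.68 and 6.65 in intact arrays. For both genes every pair of groups overlapped. Castrated minus intact differences were 0.12 log2 for Tgfbr1 (95% interval -0.37 to 0.62) and 0.41 for Tgfbr2 (-0.19 to 1.0), with limma adjusted p of 0.826 and 0.457. The Tgfbr2 difference was 0.17 without intact replicate 2 and 0.66 without intact replicate 3, and passed in neither case (limma adjusted p = 0.827 and 0.176). Regenerated arrays were 0.34 and 0.62 log2 units below castrated arrays, and neither passed (limma adjusted p = 0.423 and 0.212).

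Tgfbr3 encodes betaglycan, the co-receptor that presents TGF-beta 2 and also binds inhibin. It was 9.27, 9.43, 9.23 and 9.75 in regenerated arrays, 10.61, 10.68 and 9.06 in castrated arrays and 8.79, 8.85 and 9.63 in intact arrays. Castrated replicates 1 and 2 were the highest of all arrays, while castrated replicate 3 fell within the range of the intact arrays. The castrated minus intact difference was 1.03 ± 0.42 log2 and did not pass (limma adjusted p = 0.189). Without castrated replicate 3, the array that was also low for Bmp7, it was 1.55 and passed (adjusted p = 0.0203), whereas without replicate 1 or 2 it was 0.78 or 0.75 (adjusted p = 0.406 and 0.454). In regenerated against castrated arrays it was -0.70 log2 (limma adjusted p = 0.38). That difference was -1.22 without castrated replicate 3 (adjusted p = 0.0578), -0.45 without castrated replicate 1 and -0.42 without castrated replicate 2 (adjusted p = 0.67 and 0.736).

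The other 6 ligands and the 3 receptors were then counted together. Limma with Benjamini-Hochberg adjustment called 1 of these 9 members between castrated and intact arrays, Tgfb3, which rose, where 8.01% of all 30142 genes were called and 4.82% rose. Of the same 9, 3 had groups that did not overlap (Tgfb3, Inhba and Bmp7), and groups likewise did not overlap for 28.9% of all genes. Their median change was 0.16 log2, against 0.04 over all genes. None of the 3 receptors passed in this comparison, and 1 had an unadjusted p under 0.05. Between regenerated and castrated arrays 2 of the 9 were called, Bmp7 higher and Tgfb3 lower, where 4.98% of all genes were called, 1.97% higher and 3.01% lower. Their median change was -0.28 log2, against -0.01 over all genes. Between regenerated and intact arrays limma called none of the 10 members, none had an unadjusted p under 0.05, and 0.0365% of all genes were called. The widest 95% interval among the 10 members there was that of Bmp7, from -0.76 to 1.15 log2.

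**Figure D2:**
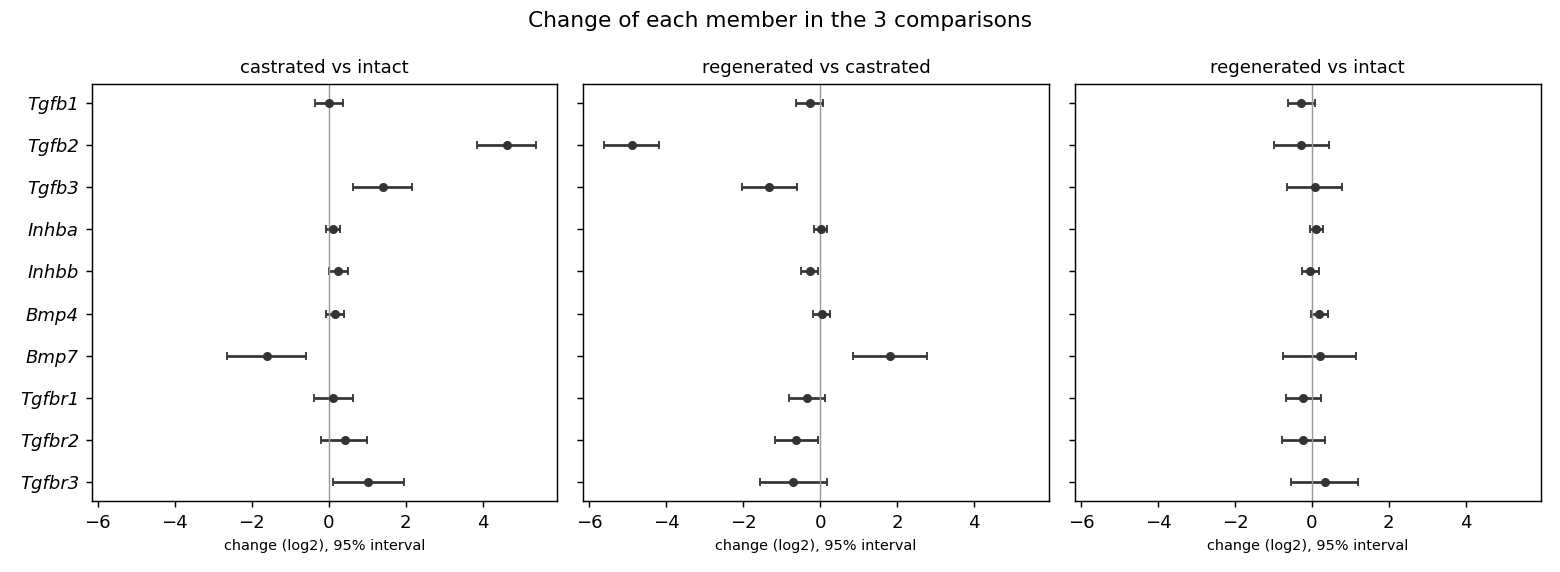
Change of each member on the log2 scale (x axis) in the 3 comparisons between groups, 1 panel each, as limma estimates (points) with 95% intervals (bars). Tgfb2 stands at 4.62 and -4.90 in the first 2 comparisons, and every interval in the third spans 0.

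Other genes of the pathway were followed in 6 lists of ligands, receptors, latency and activation, extracellular inhibitors, Smads with their regulators, and targets. Of 126 listed genes 120 were measured. Between castrated and intact arrays 14 rose, 4 fell and 102 did not pass, 15.0% called against 8.01% of all genes, of which 4.82% rose and 3.19% fell. Between regenerated and castrated arrays 2 rose and 10 fell, 10% called against 4.98% of all genes. Their median change was 0.04 log2 in the first comparison, equal to that of all genes, and -0.04 in the second.

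Genes of the latency and activation list were among those with large changes. Of 20 measured in this list, 3 rose and 1 fell in castrated against intact arrays, 20% called against 8.01% of all genes. Thbs1, which encodes the activator thrombospondin 1, was 10.44, 13.02, 11.24 and 12.04 in regenerated arrays, 16.70, 15.98 and 15.39 in castrated arrays and 11.21, 11.10 and 9.91 in intact arrays. The castrated arrays lay above all others, and Thbs1 rose by 5.28 ± 0.62 log2 over intact (limma adjusted p = 0.000847). Itgb6, the beta chain of an epithelial integrin that activates latent TGF-beta 1 and 3, was 5.34, 6.03, 5.60 and 6.06 in regenerated, 9.01, 10.22 and 7.93 in castrated and 5.28, 5.19 and 5.28 in intact arrays. It rose by 3.81 ± 0.45 log2 (limma adjusted p = 0.000902), and its partner chain Itgav rose by 1.49 ± 0.29 (adjusted p = 0.0111). Itgb5, another beta chain that pairs with alpha-v and the 1 gene of this list that fell, dropped by 1.23 log2 (limma adjusted p = 0.0292, lost without castrated replicate 1 or 2 or any intact array). In regenerated against castrated arrays Thbs1 fell by 4.34, Itgb6 by 3.30 and Itgav by 1.26 log2 (limma adjusted p = 0.0021, 0.00175 and 0.0245). The Itgav call there was lost in 6 of 18 alternatives (adjusted p of up to 0.0886).

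Among 13 further receptors 1 rose and 2 fell in castrated against intact arrays, 23.1% called against 8.01% of all genes. Bmpr1b, a type I BMP receptor, was 11.30, 10.79, 10.95 and 9.51 in regenerated arrays, 6.37, 6.20 and 6.99 in castrated arrays and 11.75, 11.92 and 11.75 in intact arrays. The 3 groups did not overlap, with regenerated replicate 4 the lowest of its group. Bmpr1b fell by 5.29 ± 0.41 log2 in castrated against intact arrays (limma adjusted p = 7.43e-05), a 39.0-fold difference, and rose by 4.12 ± 0.39 in regenerated against castrated arrays (adjusted p = 0.000314). Between regenerated and intact arrays it did not pass (-1.17 log2, limma adjusted p = 0.326). The activin receptors Acvr1c and Acvr2b changed by -0.70 and 0.56 log2 in castrated against intact arrays (limma adjusted p = 0.0167 and 0.0417). Acvr1c lay under the background limit on all castrated arrays and above it on 2 intact arrays, so that it was at least 1.05-fold lower in castrated arrays. Its call was lost in 4 of 17 alternatives and that of Acvr2b in 11 of 18, both scaling alternatives among them.

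Of 24 further ligands only Bmp3 passed, higher in castrated against intact arrays and lower in regenerated against castrated arrays. In each comparison that was 4.17% of the list, against 8.01% and 4.98% of all genes. Bmp3 was 3.58 to 3.69 in regenerated, 4.34 to 4.81 in castrated and 3.57 to 3.73 in intact arrays, above the background limit on 2 castrated arrays alone. Its differences were 1.01 and -1.02 log2 (limma adjusted p = 0.000785 and 0.000668), and against the limit it was at least 1.03-fold higher in castrated arrays.

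Of 18 extracellular inhibitors only Dcn passed with all arrays, in castrated against intact and in regenerated against castrated arrays. In each comparison that was 5.56% of the list, against 8.01% and 4.98% of all genes. Without regenerated replicate 4, Fstl1, a follistatin-like gene, also passed in regenerated against castrated arrays, at -0.46 log2 (limma adjusted p = 0.028), against -0.25 with it (adjusted p = 0.575). Dcn encodes decorin, a matrix proteoglycan that binds TGF-beta and is usually a product of fibroblasts. It was 11.62, 11.01, 11.89 and 10.94 in regenerated arrays, 6.88, 9.09 and 6.63 in castrated arrays and 12.77, 12.54 and 11.40 in intact arrays. It fell by 4.70 ± 0.61 log2 in castrated against intact arrays (limma adjusted p = 0.00143) and rose by 3.83 ± 0.57 in regenerated against castrated arrays (adjusted p = 0.00394). None of the 13 stromal markers passed in either comparison, where 8.01% and 4.98% of all genes did. In each, 2 had an unadjusted limma p under 0.05. Only Col6a3 and Tagln of the 13 were above the background limit on all arrays, and a marker at the limit cannot show a fall. The summed level of the list was 7.94 to 8.25 log2 in regenerated, 7.93 to 8.15 in castrated and 8.07 to 8.32 in intact arrays. The part of stromal cells in the Dcn difference was not tested.

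Of 22 Smads and regulators 2 rose in castrated against intact arrays, 9.09% called against 8.01% of all genes. The ubiquitin ligase gene Nedd4l rose by 1.59 ± 0.29 log2 (limma adjusted p = 0.00814). Pmepa1, a target of TGF-beta that restrains its signal, rose by 0.86 ± 0.16 (adjusted p = 0.0104). Both fell in regenerated against castrated arrays, 9.09% called against 4.98% of all genes. Nedd4l fell by 1.60 and Pmepa1 by 0.62 log2 (limma adjusted p = 0.0075 and 0.0444). That last call was lost in 13 of 18 alternatives (adjusted p of up to 0.137). None of the Smad genes themselves passed in any of the 3 comparisons when all arrays were used. The inhibitory Smad7 was 0.60 log2 higher in castrated than in intact arrays (limma adjusted p = 0.197) and passed without regenerated replicate 4 (adjusted p = 0.0298).

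Of 23 measured targets of the pathway 7 rose and none fell in castrated against intact arrays, 30.4% called against 8.01% of all genes. Id1, a BMP target that blocks basic helix-loop-helix factors, was 7.59, 9.56, 8.94 and 9.91 in regenerated, 11.54, 12.08 and 9.11 in castrated and 6.06, 6.24 and 6.10 in intact arrays. All castrated and all regenerated arrays were above the intact arrays, and castrated and regenerated arrays overlapped. Id1 rose by 4.78 ± 0.74 log2 in castrated against intact arrays (limma adjusted p = 0.00349). The related Id3 rose by 2.15 ± 0.49 and the cell cycle inhibitor Cdkn1a by 1.94 ± 0.41 (limma adjusted p = 0.0242 and 0.0167). Both calls were lost without intact replicate 1 or 3, and that of Id3 also without intact replicate 2 or castrated replicate 1 or 2. None of these 3 passed between regenerated and castrated arrays (limma adjusted p = 0.162 for Id1, 0.776 for Id3 and 0.578 for Cdkn1a). Without castrated replicate 3, Id1 was -2.81 log2 in that comparison and passed (limma adjusted p = 0.0252). Between regenerated and intact arrays Id1 differed by 2.87 ± 0.69 log2 and did not pass (limma adjusted p = 0.261).

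In regenerated against castrated arrays 4 of the 23 targets fell and none rose, 17.4% called against 4.98% of all genes. Ccn1, a matricellular protein gene, fell by 2.21 ± 0.39 log2 (limma adjusted p = 0.0094), and the transglutaminase gene Tgm2 by 1.66 ± 0.24 (adjusted p = 0.00354). Klf10, a TGF-beta inducible zinc finger gene, fell by 0.98 ± 0.23 (limma adjusted p = 0.0354, lost in 10 of 18 alternatives). Tgm2 was 4.78 to 5.03 in regenerated, 5.92 to 7.22 in castrated and 4.68 to 4.77 in intact arrays, and Klf10 was 6.37 to 7.04, 7.37 to 8.19 and 6.13 to 6.38 in the same 3 groups. For both genes the castrated arrays were above all others.

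**Figure D3:**
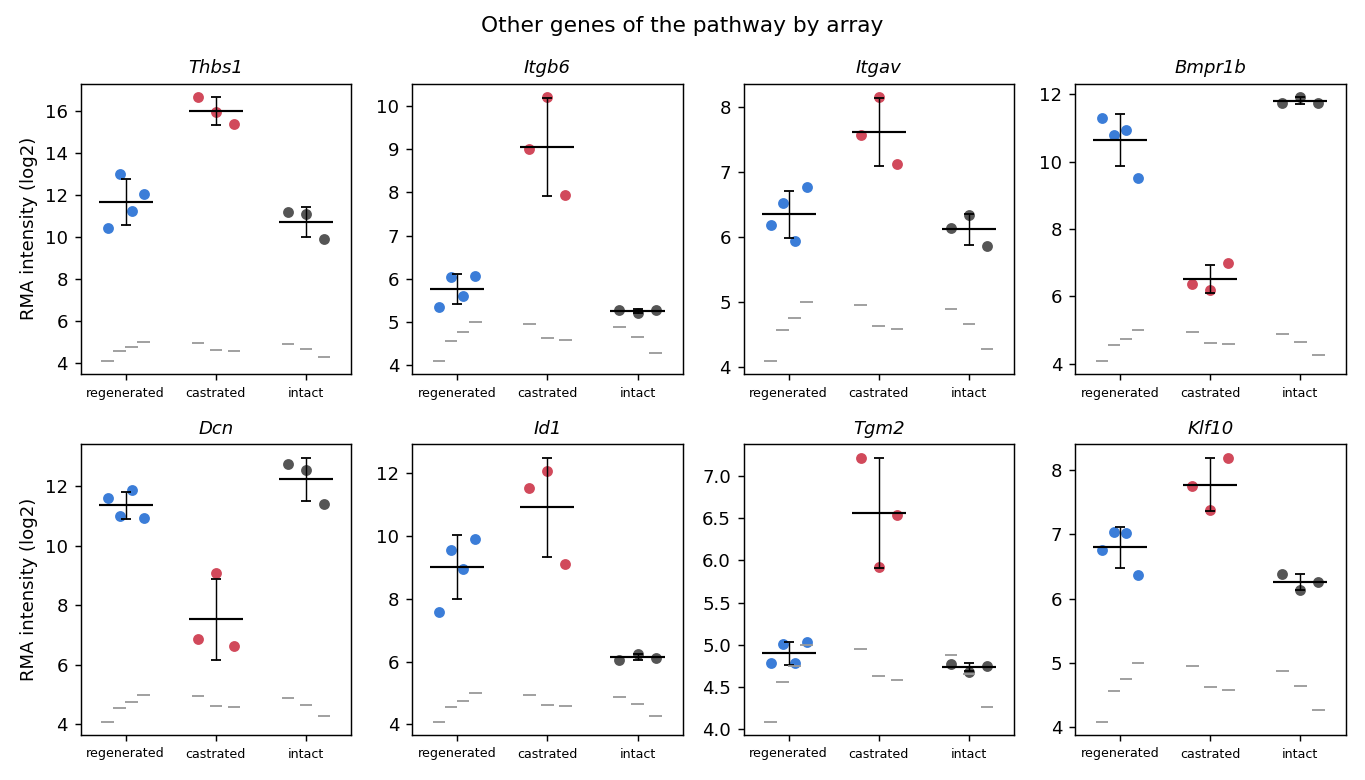
Log2 RMA intensity (y axis, own range in each panel) of 8 other pathway genes in regenerated (n = 4), castrated (n = 3) and intact (n = 3) arrays. Points are arrays, horizontal lines are means, error bars are SDs and grey ticks are each array's background limit; castrated arrays lie above intact arrays for Thbs1, Itgb6, Itgav, Id1, Tgm2 and Klf10 and below them for Bmpr1b and Dcn.

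Between regenerated and intact arrays limma called none of the 120 other pathway genes, where 0.0365% of all genes were called. An unadjusted limma p under 0.05 was found for 20 of the 120. The share of all genes with such a p was not counted, so the 20 cannot be read as an excess. The largest differences per list, none of which passed, were -0.30 log2 for Gdf10, a ligand under the background limit on all 10 arrays, -1.17 for Bmpr1b, 0.94 for Thbs1, -0.87 for Dcn, -1.10 for the repressor gene Tgif1 and 2.87 for Id1 (limma adjusted p = 0.261 to 0.702).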

How the data were processed

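The deposited table held log2 values for 72688 rows and 10 arrays. Per the submitters' processing notes the authors ran RMA in Affymetrix Expression Console; its version and the genome build are not given in the sources used here. The method brings the arrays to a common distribution, so a shift of all transcripts would be reduced. Arrays have no sequencing depth; their number limits the precision. Of 65956 non-control rows 30604 had 1 gene symbol, 2146 several and 33206 none listed. Symbols were updated by gene identifier for 827 rows, and the highest-mean row was kept for 355 genes with several, leaving 30142 genes. No column was unused, and no arrays held identical values.

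All 10 arrays entered 1 model of the 3 groups without covariates, which left 7 residual degrees of freedom, using lmFit and eBayes with a trend (limma 3.58.1, R 4.3.3). Tests were two-sided, and genes with a Benjamini-Hochberg adjusted p under 0.05 over all genes are called. Counts of genes with an unadjusted limma p under 0.05 have no share over all genes beside them, as none was computed. The script was tested on simulated data. At-least folds set values under a background limit to that limit in the dimmer group, while values of the brighter group were kept as measured.

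The members, lists and tests were chosen with earlier results of these data known. Named besides the members were, per list and comparison, the 3 called genes with the largest change (or the largest where none passed) and the genes most correlated with Tgfb2, Tgfb3 and Bmp7, without predicted genes. Itgb5, Smad7, Fstl1, Cer1 and single markers fall outside this rule. Of the 10 members 7 were found in the RefSeq promoter table (GRCm38.p6). Same-numbered arrays shared only a number: correlations of their deviations from group means ran from -0.157 to 0.264.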

Additional observations from a re-analysis of the deposited data

How the results depend on the processing

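Without Tgfb2, whose difference chose the set, 1 of the other 9 members was called between castrated and intact arrays (a count added after seeing the data), against 3 with array weights (with Bmp7 and Tgfbr3), 2 with a filter on dim genes, 0 with the replicate number as a block and 0 to 2 when 1 array was left out. Between regenerated and castrated arrays 2 were called, against 1 each with arrays centred on the median, without the mean-variance trend and with quantile normalization added, 0 when only those 2 groups were fitted, 0 with the replicate block and 0 to 2 with 1 array left out. With Tgfb2 each of these counts is 1 higher, because the gene whose difference chose the set is then counted in every setting. Castrated arrays enter both comparisons, so that added 1 follows from the choice of the set and is given without a test. The counts with Tgfb2 were 2 between castrated and intact arrays (4 with array weights, 1 with the replicate block, 1 to 3 with 1 array left out). Between regenerated and castrated arrays they were 3 (1 with only those 2 groups or the block, 1 to 3 with 1 array left out). The Tgfb2 difference ran from 4.50 to 4.77 log2 between castrated and intact arrays and from -5.15 to -4.64 between regenerated and castrated arrays over the 18 alternatives. Tgfb3 and Bmp7 were lost in the replicate block (adjusted p = 0.0646 and 0.0596 against castrated arrays, and 0.0586 for Tgfb3 against intact arrays), but the numbers do not pair the arrays. No member was called between regenerated and intact arrays in any alternative. Counts of other pathway genes stayed within 1.5 times in every alternative, at 12 to 24 between castrated and intact and 8 to 15 between regenerated and castrated arrays. Of 531 alternative values of single members, 478 counted as the same, 28 lost a call, 5 gained one and 20 turned sign, none of them called. Most of the 531 values had no call to lose. All 28 losses fell on Tgfb3 and Bmp7. Tgfb3 lost its call in 6 of 18 settings between castrated and intact arrays. Between regenerated and castrated arrays Tgfb3 lost it in 13 of 18 and Bmp7 in 9 of 18. The same means that direction and side of the threshold were kept. For the 18 Tgfb2 values between castrated and intact arrays no threshold was used. They counted as the same because they moved by less than the larger SD of the 2 groups. The 18 Tgfb2 values between regenerated and castrated arrays were scored by the threshold, and all kept their side. That is no test of Tgfb2, because the same castrated arrays helped to choose the gene. The values that turned were, between castrated and intact arrays, Tgfb1 at -0.08 (arrays centred on the median), -0.10 (quantile normalization added) and -0.09 to 0.12 without 1 array, and Tgfbr1 at -0.04 to 0.28 without 1 array. Between regenerated and castrated arrays they were Inhba at -0.0042 with array weights and -0.04 to 0.03 without 1 array, and Bmp4 at -0.03 with the replicate block and -0.03 to 0.09 without 1 array. Between regenerated and intact arrays they were Tgfb3 at -0.08 with the replicate block and -0.08 to 0.23 without 1 array, Inhbb at -0.09 to 0.03 and Tgfbr2 at -0.45 to 0.04 without 1 array. Apart from what fewer arrays or genes bring with them, the cause of these shifts was not tested. Signal over background limits Inhba, Inhbb, Bmp4 and in part Tgfb3.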
